A study of Mus musculus with 8 samples.

Results

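The miR-322, miR-503, miR-351, miR-542 and miR-450 genes of the mouse lie close together on the X chromosome. The members were found by name on the array, as every mature miRNA of miR-322, miR-351, miR-503, miR-542, miR-450a and miR-450b, with both arms of each hairpin. On the array they carry the prefix of the mouse, as in mmu-miR-322-5p, mmu-miR-322-3p, mmu-miR-351-5p, mmu-miR-503-5p and mmu-miR-542-3p, which is left out below. They were 11 of the 611 mouse miRNAs on the array, and the question was whether neighbours of one cluster moved together. The cells were C3H10T1/2, a mouse mesenchymal line that answers hedgehog proteins. The WT group received 750 nM wild type IhhN, the signalling fragment of Indian hedgehog, and the MT group received 750 nM of the E95K mutant IhhN, each for 48 h. The control group was kept for the same 48 h with no protein, although its labels repeat the dose of the other groups. Every group had 2 RNA samples (n = 2), and although the methods describe repeated inductions, the labels do not say whether these samples came from separate cultures, so each p-value measures only the spread between these samples, which may be technical. The WT samples were run on 2 arrays each, which made 8 arrays in all. The protein was added to the medium of 1 cell line, so the groups model a cell that receives the signal and not the cartilage that makes it.

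A miRNA is cut from a hairpin in a longer transcript, and either arm of the hairpin can be kept as the mature form. The arm at the 5′ side is called 5p and the arm at the 3′ side 3p. Bases 2 to 8 of the mature form, the seed, lead the pairing with target mRNAs, so miRNAs with one seed share many targets. miR-322-5p is the mouse counterpart of human miR-424, and with miR-503-5p it belongs by seed to the family of miR-15 and miR-16, which is known to lower cyclins and other cell cycle proteins. miR-322 and miR-503 are known to increase when muscle precursors leave the cell cycle. Clustered miRNAs are often made from 1 primary transcript, and each hairpin is then processed, loaded and lost at its own rate.

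All 11 members had a mature sequence in RefSeq. The sequences below are those of the 8 members that could be tested, in the order of the cluster, with the seed in capitals, and they show which members share a seed and which do not.
miR-322-5p: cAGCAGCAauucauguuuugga
miR-322-3p: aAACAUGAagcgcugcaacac
miR-503-5p: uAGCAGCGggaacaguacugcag
miR-351-5p: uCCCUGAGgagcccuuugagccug
miR-542-5p: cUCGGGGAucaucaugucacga
miR-542-3p: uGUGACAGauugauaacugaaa
miR-450a-5p: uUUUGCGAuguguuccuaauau
miR-450b-3p: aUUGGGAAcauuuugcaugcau
The seeds of miR-322-5p and miR-503-5p agree in bases 2 to 7 and differ in base 8. No other pair among these 8 shares bases 2 to 7. The results turn on both arms of Mir322 and of Mir542, whose hairpins follow with the mature arms in capitals.
Mir322: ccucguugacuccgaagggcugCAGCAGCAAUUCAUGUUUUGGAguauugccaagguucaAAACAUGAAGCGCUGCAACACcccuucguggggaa
Mir542: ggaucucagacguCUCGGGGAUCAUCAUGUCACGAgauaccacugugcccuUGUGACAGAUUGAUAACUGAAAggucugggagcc
In GRCm38.p6, the build of the RefSeq table, the hairpins lay on the minus strand between chrX:53047997-53054349, a stretch of 6353 bases. Mir322 (chrX:53054255-53054349) came first in the direction of transcription and Mir503 (chrX:53053984-53054054) followed after 200 bases. The mature miR-351-5p (chrX:53053315-53053338) began 989 bases after the start of miR-322-5p. Mir542 (chrX:53049403-53049487) began the far part of the cluster, with miR-542-5p 4853 bases from the same point. Mir450-2 (chrX:53048299-53048367), Mir450-1 (chrX:53048154-53048244) and Mir450b (chrX:53047997-53048078) closed it, and miR-450a-5p can come from both Mir450-2 and Mir450-1. The array files name mm9, another build, and none of their coordinates is used here.

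The arrays gave an intensity for each spot, and every member had 20 spots, divided over 2 or 4 probes. Detection of a probe required that more than 50% of its spots be marked as well above background. A level is log2 of the signal of a member's brightest probe after each array was scaled to the 75th percentile of its commonly detected probes. Levels below a floor of 4.08 were set to it. Levels of different members are not comparable, since each probe has its own brightness. By these measures miR-322-5p, miR-322-3p, miR-503-5p, miR-351-5p and miR-450a-5p, 5 members, were detected on all 8 arrays. miR-542-5p was detected on 6 arrays, miR-542-3p on 4 and miR-450b-3p on 4. miR-503-3p, miR-450a-2-3p and miR-450b-5p were detected on 0 arrays, and at this signal over background no difference in them could be seen. The 3 undetected members were left out of the test, which covered the 142 mouse miRNAs seen on every array of 1 group or more. miR-542-3p, miR-542-5p and miR-450b-3p, 3 of the 8 members tested, entered it only through the control group.

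Fewer mouse miRNAs were detected in WT replicate 1 (104 and 117) and in MT replicate 1 (106) than on the other 5 arrays (143 to 150). All arrays lay on 1 slide. The arrays of WT replicate 1 and of the MT group lay in columns 1 and 2, and those of WT replicate 2 and of the control group in columns 3 and 4. Of 7 miRNAs known from mesenchymal cells, all were detected and 6 were detected on all 8 arrays, and both arms of miR-140, the miRNA of cartilage, were detected on all 8. The miRNAs that mark skeletal muscle (0 of 4 detected), blood (0 of 4), epithelium (0 of 5), liver (0 of 1) and endocrine pancreas (0 of 1) were not detected on any array. Of 4 neuronal and 11 pluripotency miRNAs, 1 each was detected on at least 1 array.

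Both MT samples gave less miR-322-5p signal than both control samples, with little spread between the MT samples, but the difference did not pass the test. Its level was 8.63 and 9.52 in the WT samples, 8.87 and 8.93 in the MT samples and 9.33 and 10.05 in the control samples. WT replicate 1 was the lowest sample, while WT replicate 2 lay between the controls. In RNA from whole cultures, fewer cells with a miRNA and less of it per cell cannot be told apart. The change was -0.61 ± 0.34 (log2, SE) in the WT group and -0.79 ± 0.34 in the MT group relative to control, with adjusted p-values of 0.244 and 0.132 from limma (moderated test, Benjamini-Hochberg over the 142 miRNAs). The second probe of miR-322-5p gave -0.64 and -0.79. With normexp background correction the adjusted p was 0.0293 for WT and 0.00184 for MT, where the alternatives reached up to 1 for WT and 0.988 for MT. The size rested on single samples, with a WT change of -0.17 without WT replicate 1, -0.25 without control replicate 2 and -1.06 without WT replicate 2, and an MT change of -0.43 when control replicate 2 was left out and -1.15 when control replicate 1 was. Among the samples in columns 3 and 4, which are WT replicate 2 and the controls, the change was -0.17, and when the side was added to the fit the MT change was 0.099. No MT array shared a side with a control array, so the MT group and the side can be told apart only through the WT samples.

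The other arm of the same hairpin, miR-322-3p, had a WT change near 0. Of its 4 probes only the brightest, with 5 spots, was detected on any array, so no second probe could be compared. Its level was 6.25 and 6.56 in WT, 6.09 and 6.02 in MT and 6.24 and 6.50 in control. The WT samples overlapped with the controls, and both MT samples were below every other sample. The change was 0.04 ± 0.18 for WT against control (adjusted p = 0.907) and -0.32 ± 0.18 for MT against control (adjusted p = 0.219). The MT change had the opposite sign with the total gene signal (0.17) and with normexp (0.051), and the WT change was -0.32 with scaling over all mouse probes. For WT against MT the change was 0.35 ± 0.18 (adjusted p = 0.990). It was the 1 member whose WT samples were both higher than both MT samples, an order seen in 8.45% of the miRNAs tested, while 17.6% had both WT samples lower and 0 members did.

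miR-503-5p, the seed neighbour of miR-322-5p, varied more between replicates than between groups. It was at 5.47 and 6.39 in WT, 6.55 and 5.31 in MT and 5.80 and 7.14 in control, so that the 2 controls alone stood 1.34 apart and all groups overlapped. The pooled SD between replicates was 0.834, against a median of 0.176 over all miRNAs tested, and 2 of the 142 had a larger one. The changes of -0.54 ± 0.57 for WT and -0.54 ± 0.57 for MT against control were within 1 SE of 0 (adjusted p = 0.527 and 0.506). Without control replicate 2 they were 0.13 and 0.12. The 2 arrays of one WT RNA sample lay closer together, with SDs of 0.0749 and 0.068.

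miR-351-5p, whose seed is that of the miR-125 family, was the member with the highest change against control in both groups. Of its 4 probes only the brightest, with 5 spots, was detected on any array, so no second probe could be compared. Its level was 6.39 and 6.58 in WT, 6.66 and 6.02 in MT and 5.66 and 6.33 in control. Both WT samples were above both controls, and the second MT sample fell between the controls. The change was 0.48 ± 0.29 for WT (adjusted p = 0.280) and 0.35 ± 0.29 for MT (adjusted p = 0.394). With normexp the adjusted p was 0.0301 and 0.0466, and under the other alternatives it reached up to 1 in both comparisons. The WT change was positive under all alternatives run, from 0.12 to 0.82. The 0.12 came from the mean of all probes, which takes in the undetected ones. The WT change was 0.15 when control replicate 1 was left out and 0.82 when control replicate 2 was. The MT change was -0.37 with scaling over all mouse probes, 0.012 and 0.023 without the first control and the first MT replicate, and 0.68 and 0.67 without the second of each.

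miR-542-3p, which is known to lower the inhibitor of apoptosis survivin, was the member with the smallest p in both comparisons with control. It was detected in both control samples, at 4.99 and 5.15, in WT replicate 2, at 4.76, and in no array of WT replicate 1 or of the MT group, where it was at the floor of 4.08. WT replicate 2 was thus below both controls. The other WT and MT samples were below them only by the floor, because miR-542-3p was not detected there. Their order relative to the controls was therefore not measured. miR-542-3p entered the test only through the control group, where it is high. A difference in this direction was thus partly set by the filter, and the p-values of miR-542-3p are given as a description. The WT change was -0.65 ± 0.23 (adjusted p = 0.139) and the MT change -0.99 ± 0.23 (adjusted p = 0.0611). Since the MT group has only a bound, with the main scaling the mean of the control group was at least 1.33-fold higher than that of the MT group. This too is a description, in a direction partly set by the filter, and no bound was taken under the other settings. The bound took the higher of the dim probe's own signal and the lowest signal of detected probes on each MT array. Its mean over the MT samples was 4.66, against a measured control mean of 5.07, and the MT mean of 4.08 was the floor. With a random block for the RNA sample the adjusted p of the MT change was 0.0469, and it reached 0.945 under another alternative. Without WT replicate 1 the WT change was -0.31, and with normexp it was 0.15. The MT change was -0.032 with normexp and -0.31 with the side in the fit. A second probe gave -0.44 for WT and -0.52 for MT.

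The 5p arm of the same hairpin, miR-542-5p, had the opposite sign. Its level was 5.03 and 4.94 in WT, 5.02 and 4.73 in MT and 4.78 and 4.58 in control, and both WT samples were above both controls. It was detected on 3 of 4 WT arrays, 1 of 2 MT arrays and both control arrays. The change was 0.31 ± 0.17 for WT (adjusted p = 0.244) and 0.19 ± 0.17 for MT (adjusted p = 0.415), and a second probe gave 0.26 and 0.23. With scaling over all mouse probes the changes were -0.036 and -0.50.

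At the far end of the cluster, miR-450a-5p had negative changes that did not pass the test and miR-450b-3p was near its detection limit. miR-450a-5p was at 5.42 and 6.0 in WT, 5.78 and 5.48 in MT and 5.95 and 6.25 in control, with both MT samples below both controls. Its change was -0.39 ± 0.24 for WT (adjusted p = 0.286) and -0.47 ± 0.24 for MT (adjusted p = 0.184), and the second probe gave -0.43 and -0.52. With normexp these changes were 0.15 and 0.017. miR-450b-3p was at 4.08 and 4.50 in WT, 5.38 and 4.08 in MT and 4.47 and 4.35 in control. The highest value came from the array of MT replicate 1, on which the miRNA did not count as detected. Its change was -0.12 ± 0.40 for WT and 0.32 ± 0.40 for MT, and the MT change was -0.33 without MT replicate 1, 0.97 without MT replicate 2 and -0.24 by another probe.

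**Figure D1:**
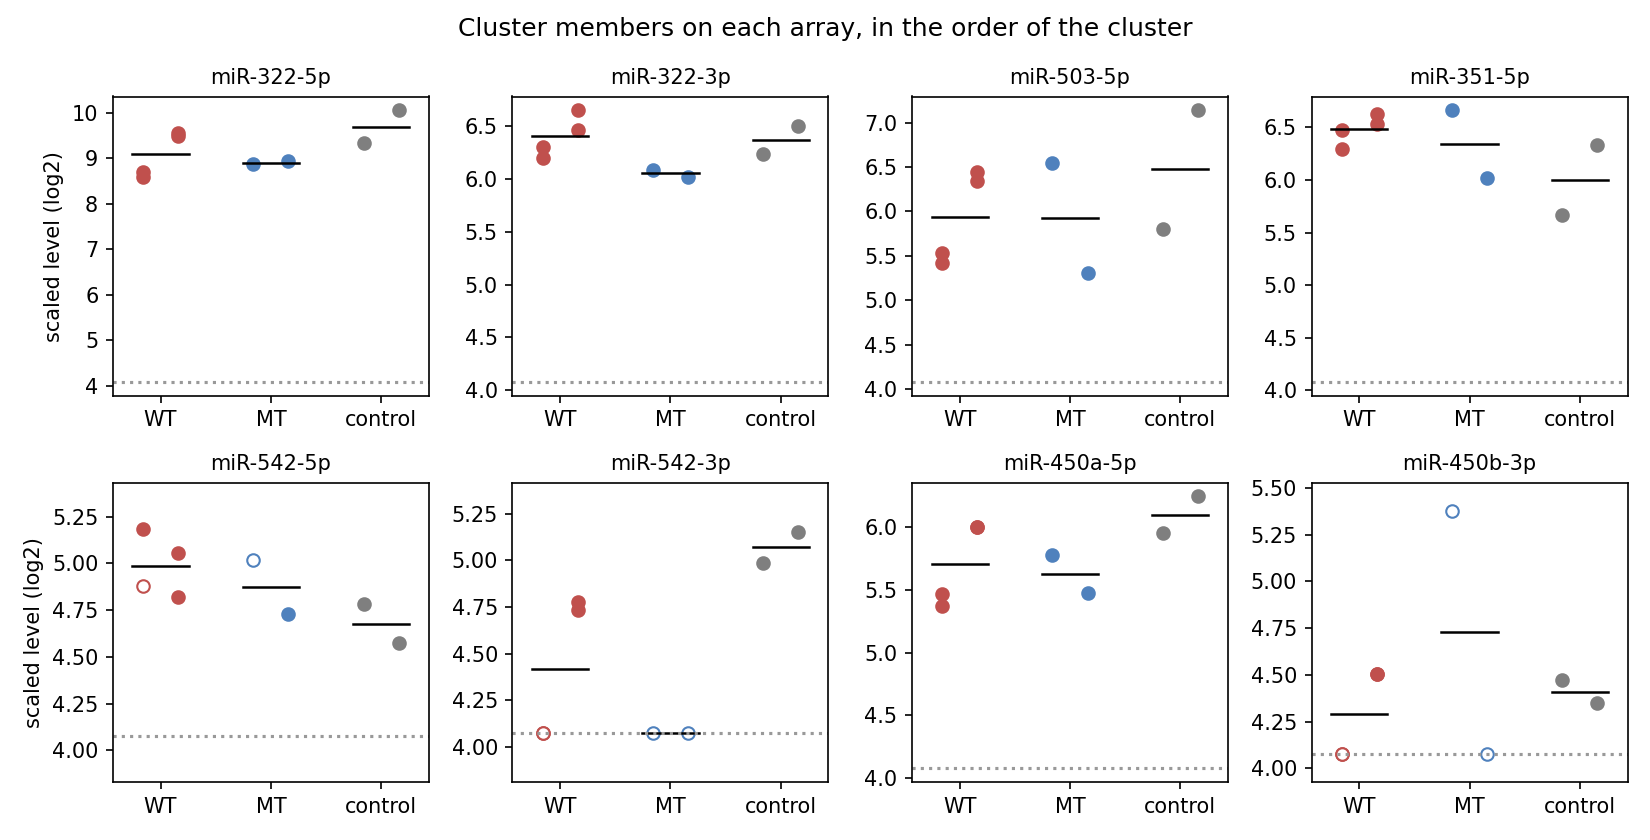
Scaled level (log2) of the 8 cluster members tested on each array by group, with group means as bars, open circles where the member was not detected on that array, and the floor of 4.08 as a dotted line. The arrays of 1 RNA sample stand at the same horizontal position, each panel has its own axis, and the controls of miR-503-5p lie 1.34 apart while miR-542-3p is at the floor in both MT samples.

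Over all members, 0 of 8 passed an adjusted p of 0.05 in any of the 3 comparisons, and neither did any of the 142 miRNAs (0% in each). At an unadjusted p under 0.05, 1 of 8 members, miR-542-3p, passed for WT against control, where 28.2% of all miRNAs tested passed, and the same 1 of 8 passed for MT against control, where 39.4% passed. Since miR-542-3p was tested only because of its control arrays, these counts are a description, and of the 5 members detected on all arrays 0 had an unadjusted p under 0.05 in any comparison by limma. For WT against MT, 0 members and 0% of all miRNAs had an unadjusted p under 0.05. In counts of samples that did not overlap, 1 of 8 members, miR-542-3p, was lower in both WT samples than in both controls, against a background of 25.4%. Higher were 2 of 8, miR-351-5p and miR-542-5p, against 39.4%. For MT against control, 4 of 8 were lower against 26.8%, namely miR-322-5p, miR-322-3p, miR-450a-5p and miR-542-3p, and 0 were higher against 40.8%. The place of miR-542-3p in both lower counts was partly set by the filter and by the floor. The other members in the lower MT count were detected on all arrays. The WT and MT comparisons share the 2 control samples, so a like change in both is not seen independently.

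**Figure D2:**
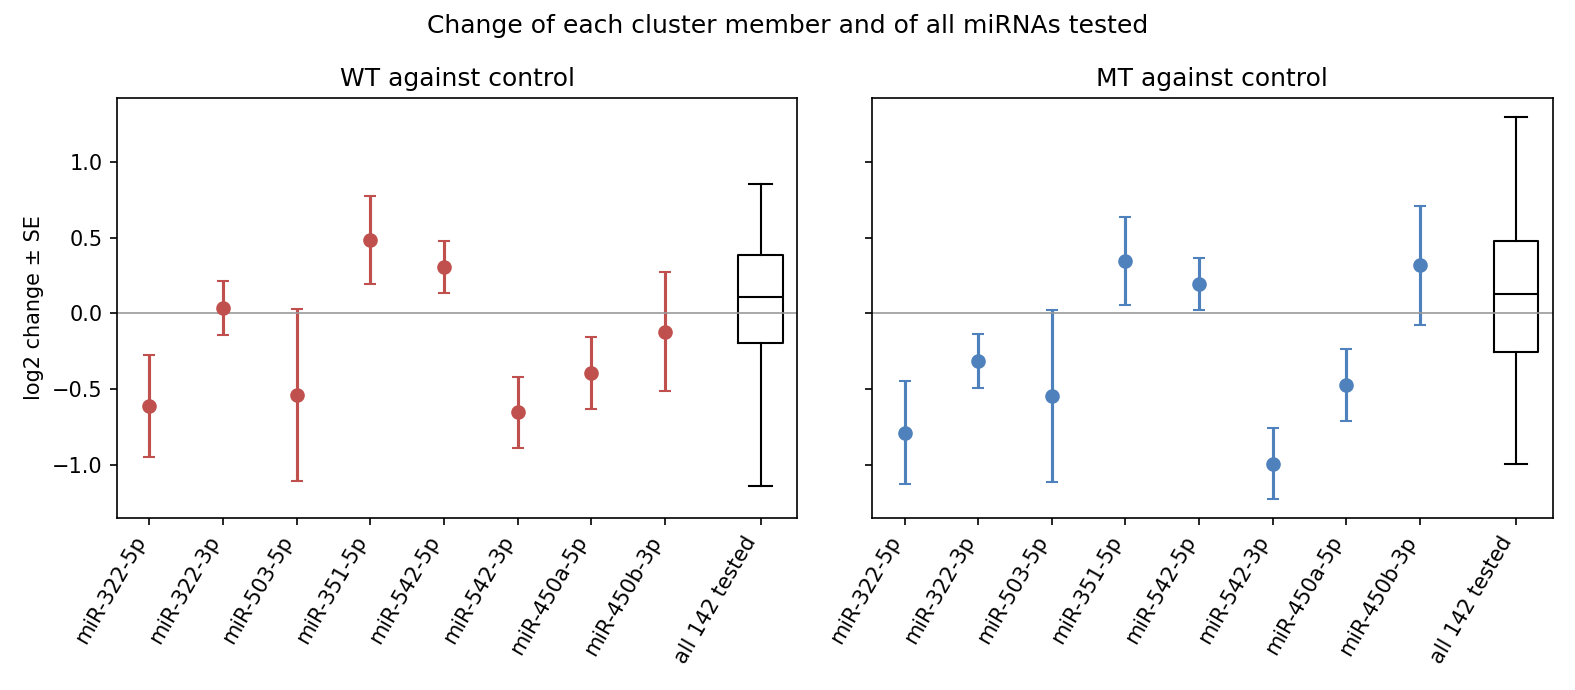
Log2 change ± SE of the 8 members tested, in the order of the cluster, for WT and MT against control, beside a box of all 142 miRNAs tested (median, quartiles and full range). The changes run from -0.65 to 0.48 in WT and from -0.99 to 0.35 in MT, on both sides of 0.

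The changes of the members lay on both sides of 0. The median change of the 8 was -0.26 for WT against control, where that of all 142 was 0.11, and -0.39 for MT against control, where that of all was 0.13. Of the 8, 3 were positive and 5 negative in each of these comparisons, but 3 of the 8 entered the test only through the control group. Of the 5 members detected on all arrays, 2 were positive and 3 negative for WT, with a median of -0.39. For MT 1 was positive and 4 negative, with a median of -0.47. Of all 103 such miRNAs, 67 were positive for WT and 61 for MT, with medians of 0.17 and 0.14. The SD of the changes among the members was 0.43 for WT and 0.51 for MT, about as wide as among all miRNAs tested (0.40 and 0.48). Among the 5 members detected on all arrays the SDs were 0.46 and 0.43, and among all 103 such miRNAs 0.39 and 0.47. For WT against MT, 7 of 8 members were positive with a median of 0.13, where all miRNAs had a median of -0.04, and the SD was 0.25 against 0.19. Without WT replicate 2, without MT replicate 2 and with the total gene signal, 3 of 8 were positive for WT against MT, with medians of -0.11, -0.05 and -0.37. miR-542-3p, at the floor on both sides, was at 0 without WT replicate 2. For WT against MT the side in the fit gave the same changes as leaving out WT replicate 2, so it is not a separate check. Without WT replicate 1 and without MT replicate 1 the medians were 0.42 and 0.30. Without WT replicate 1 the median of the WT changes against control was 0.0073 and their SD 0.28, and without control replicate 2 that of the MT changes was -0.046.

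Scaling cancels in the ratio of 2 members on the same array, so the ratios to miR-322-5p show unequal change directly. The log2 ratio of miR-351-5p to miR-322-5p, with the mean of the controls set to 0, was 1.44 and 0.75 in WT and 1.49 and 0.78 in MT, while the controls lay 0.03 to either side of 0. The ratio of miR-322-3p to miR-322-5p, the 2 arms of one hairpin, was 0.93 and 0.36 in WT and 0.54 and 0.40 in MT, with controls at 0.23 and -0.23. In both ratios all 4 samples with protein were above both controls, an order that 37.3% of the 102 other miRNAs detected on all arrays also had in their ratio to miR-322-5p. Of the 4 members, 2 had it, and 31 of the 102 had a higher mean ratio than miR-351-5p in the samples with protein relative to the controls. The ratios of miR-503-5p (0.06, 0.09, 0.90 and -0.41, controls -0.30 and 0.30) and of miR-450a-5p (0.37, 0.07, 0.50 and 0.13, controls 0.22 and -0.22) overlapped with the controls. The separation of both ratios was also present with quantile normalization and normexp, and with normexp the ratios of miR-503-5p and miR-450a-5p were above both controls too, their lowest samples with protein at 0.25 and 0.29 and their higher controls at 0.14 and 0.18. With the total gene signal the lowest sample with protein was at 0.15 for miR-351-5p, below the higher control at 0.30. The ratios are given without a test. WT replicate 2 and MT replicate 2 stood nearest to the controls in both, and the larger values came from WT replicate 1 and MT replicate 1. These are the samples with the fewest miRNAs detected (104, 117 and 106), and the SD of the negative control spots on their arrays was 6.63, 3.76 and 5.61 (in units of signal), where the remaining arrays had 2.91 to 3.38. The part of these differences in the ratios was not tested.

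**Figure D3:**
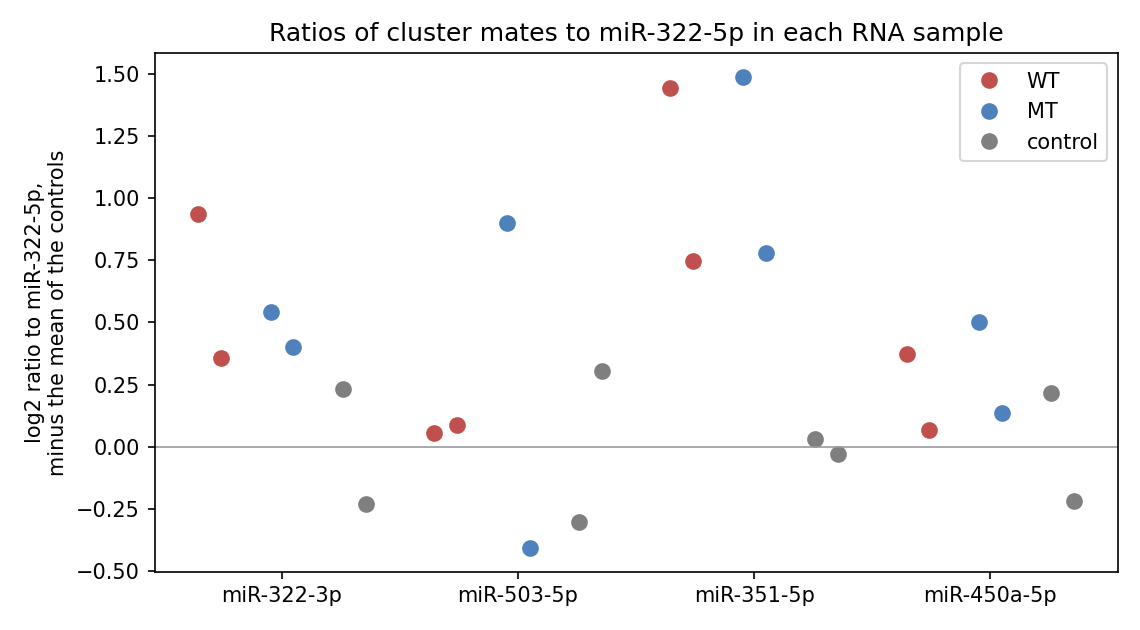
Log2 ratio of 4 members to miR-322-5p in each RNA sample, with the mean of the control samples set to 0, for the members detected on all 8 arrays. For miR-351-5p and miR-322-3p all 4 points of the WT and MT groups lie above both controls, and for miR-503-5p and miR-450a-5p they overlap.

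Likeness between members was also measured as the root mean square difference of their levels over the 6 RNA samples, each centred on its own mean. Among the 10 pairs of the 5 members detected on all arrays, the median was 0.426, where the median of all 5253 pairs of such miRNAs was 0.319. This measure grows with the spread of each miRNA. The pooled replicate SD was 0.83 for miR-503-5p, 0.47 for miR-322-5p, 0.39 for miR-351-5p, 0.29 for miR-450a-5p and 0.17 for miR-322-3p. Its median over all miRNAs tested was 0.176. The 2 medians of pairs therefore do not show whether members differ more in direction than other miRNAs. The closest pair was miR-322-3p with miR-450a-5p, at 0.204, followed by miR-322-5p with miR-450a-5p, at 0.230. The farthest was miR-322-5p with miR-351-5p, at 0.60, whose start sites are 989 bases apart. In Mir450-1, miR-450a-5p begins 6100 bases from miR-322-5p, and it can also come from Mir450-2, which lies somewhat nearer. The 2 arms of Mir322 were at 0.349. The same difference was taken between the mean profile of the 5 and each of 98 miRNAs outside the cluster, with a median of 0.439. The nearest were miR-218-5p (0.201), let-7g-5p (0.214), miR-34b-5p (0.223), miR-29c-3p (0.224) and miR-199a-3p (0.236). Since these are distances to a mean of 5 profiles, they are not comparable with those between 2 single miRNAs. That mean profile was at -0.31 and 0.27 in WT, 0.05 and -0.39 in MT and -0.14 and 0.515 in control. Each of the 5 members was higher in WT replicate 2 than in WT replicate 1, and higher in control replicate 2 than in control replicate 1. How many other miRNAs had this order was not counted, so it does not show whether the members moved together more than other miRNAs did. All points share the same 6 samples and the same scaling.

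Other clusters on the array served as a measure of how far neighbours can differ here. The range between the lowest and the highest change was 1.14 for WT and 1.34 for MT among the 8 members. The low end of both was miR-542-3p, so these ranges were partly set by the filter and the floor. Among the 5 members detected on all arrays the range was 1.0961 for WT and 1.134 for MT. Some of the other clusters also hold miRNAs not detected on all arrays. The largest of the other ranges for WT was that of miR-17 to miR-92a, where the changes of 3 miRNAs spanned 1.61 with a median of -0.32 (1.498 and -0.25 for MT). Next to it stood miR-106b, miR-93 and miR-25, with 0.98 over 3 miRNAs and a median of 0.32 (1.09 and 0.33 for MT). miR-221 and miR-222 differed by 0.036 for WT and 0.045 for MT, and the 4 miRNAs tested of miR-23b, miR-27b and miR-24 spanned 0.26 and 0.16, with medians of 0.08 and -0.04. Those of miR-23a, miR-27a and miR-24 spanned 0.23 and 0.47 over 4 miRNAs, with medians of 0.01 and -0.08, those of miR-199a and miR-214 0.71 and 0.997 over 4, with medians of 0.23 and 0.38, and miR-143 and miR-145 differed by 0.65 and 0.47, with medians of 0.02 and 0.12. In the cluster of miR-188, miR-362 and miR-532, 2 miRNAs differed by 0.10 and 0.99, with medians of 0.24 and 0.80. Some of these miRNAs, such as miR-24-3p and miR-199a, can also come from a gene elsewhere in the genome. A range widens with the number of miRNAs in it, and these ranges were not tested against each other.

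**Figure D4:**
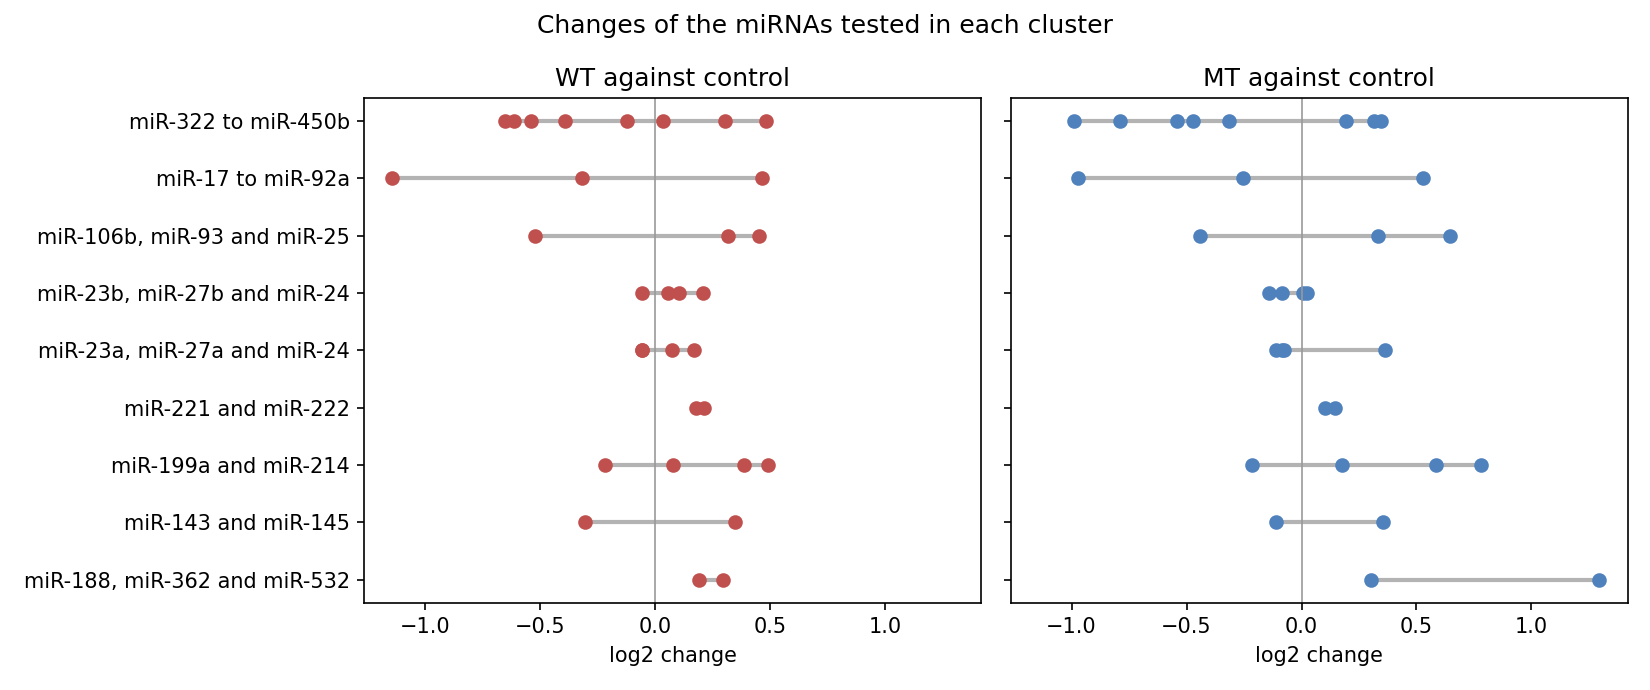
Log2 change of every miRNA tested in the cluster of miR-322 to miR-450b and in 8 other clusters, for WT and MT against control, each point 1 miRNA and each grey line the range. The top row spans 1.14 in WT and 1.34 in MT and crosses 0, while miR-221 and miR-222 lie within 0.05 of each other.

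The seed relatives of the members were compared as well, since they act on overlapping targets. Of the 611 mouse miRNAs on the array, 476 had a RefSeq sequence under the same name and 19 under a synonym, and the seeds of the other 116 were not looked at. Of 9 RefSeq miRNAs outside the cluster with bases 2 to 7 of miR-322-5p and miR-503-5p, 5 were on the array, 4 were tested and 3 were detected on all arrays. The sequences of the 4 are shown because they share the whole seed of miR-322-5p, and miR-195-5p is the array's name for miR-195a-5p.
miR-15a-5p: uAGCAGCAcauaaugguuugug
miR-15b-5p: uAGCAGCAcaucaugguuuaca
miR-16-5p: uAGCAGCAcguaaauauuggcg
miR-195-5p: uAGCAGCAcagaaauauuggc
The level of miR-15a-5p was 6.42 and 6.85 in WT, 6.47 and 6.61 in MT and 7.02 and 7.18 in control. That of miR-16-5p was 8.61 and 8.76 in WT, 8.33 and 8.77 in MT and 9.24 and 9.04 in control. Every sample with protein was below both controls for these 2 miRNAs. miR-15b-5p had the opposite order, at 9.27 and 8.96 in WT, 9.21 and 9.13 in MT and 8.92 and 8.54 in control. Of all miRNAs tested, 25.4% were lower in both WT samples than in both controls and 39.4% were higher. For the MT samples these shares were 26.8% and 40.8%. The changes were -0.46 (WT) and -0.56 (MT) for miR-15a-5p, -0.45 and -0.59 for miR-16-5p and 0.39 and 0.44 for miR-15b-5p. miR-195-5p was at 4.54 and 4.35 in control and at the floor of 4.08 in all WT and MT samples. It was tested only through the control group, and its change of -0.37 in both comparisons (adjusted p = 0.167 and 0.114) was 0.16 for WT and 0.016 for MT with normexp. Of these relatives, 0 of 4 passed the adjusted p of 0.05, and miR-497-5p, the array's name for miR-497a-5p, was on the array but not tested. With normexp the MT change of miR-16-5p passed (-0.51, adjusted p = 0.0188, against 0.0873 to 0.945 with the other scalings and signals and the side in the fit). The changes of miR-322-5p had the sign of those of miR-15a-5p and miR-16-5p and not that of miR-15b-5p, apart from scaling over all mouse probes, where the MT change of miR-15b-5p was -0.27, and from the fit with the side, where that of miR-322-5p was 0.099.

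For miR-351-5p, 4 relatives were in RefSeq and 2 on the array, both with its whole seed.
miR-125a-5p: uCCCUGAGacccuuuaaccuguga
miR-125b-5p: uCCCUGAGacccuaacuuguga
The level of miR-125a-5p was 9.61 and 9.55 in WT, 9.61 and 9.67 in MT and 9.16 and 9.05 in control. That of miR-125b-5p was 13.60 and 13.36 in WT, 13.56 and 13.57 in MT and 13.25 and 13.08 in control. Both were higher in every sample with protein than in both controls. For WT alone 39.4% of all miRNAs tested had this order, and for MT alone 40.8%. The changes of these 2 relatives were 0.47 (WT) and 0.54 (MT) for miR-125a-5p and 0.32 and 0.40 for miR-125b-5p. Their adjusted p-values were 0.139 and 0.0611 for miR-125a-5p and 0.216 and 0.114 for miR-125b-5p, so 0 of 2 passed. With normexp the MT change of miR-125a-5p was 0.46 and passed (adjusted p = 0.0390, against 0.0867 to 0.945 in the same other settings). The signs were those of miR-351-5p, although scaling over all mouse probes gave MT changes of -0.18 for miR-125a-5p and -0.31 for miR-125b-5p, beside -0.37 for miR-351-5p, and a WT change of -0.043 for miR-125b-5p. The detected members miR-322-3p, miR-542-3p, miR-542-5p, miR-450a-5p and miR-450b-3p had no seed relative among the miRNAs tested that have a RefSeq sequence.

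**Figure D5:**
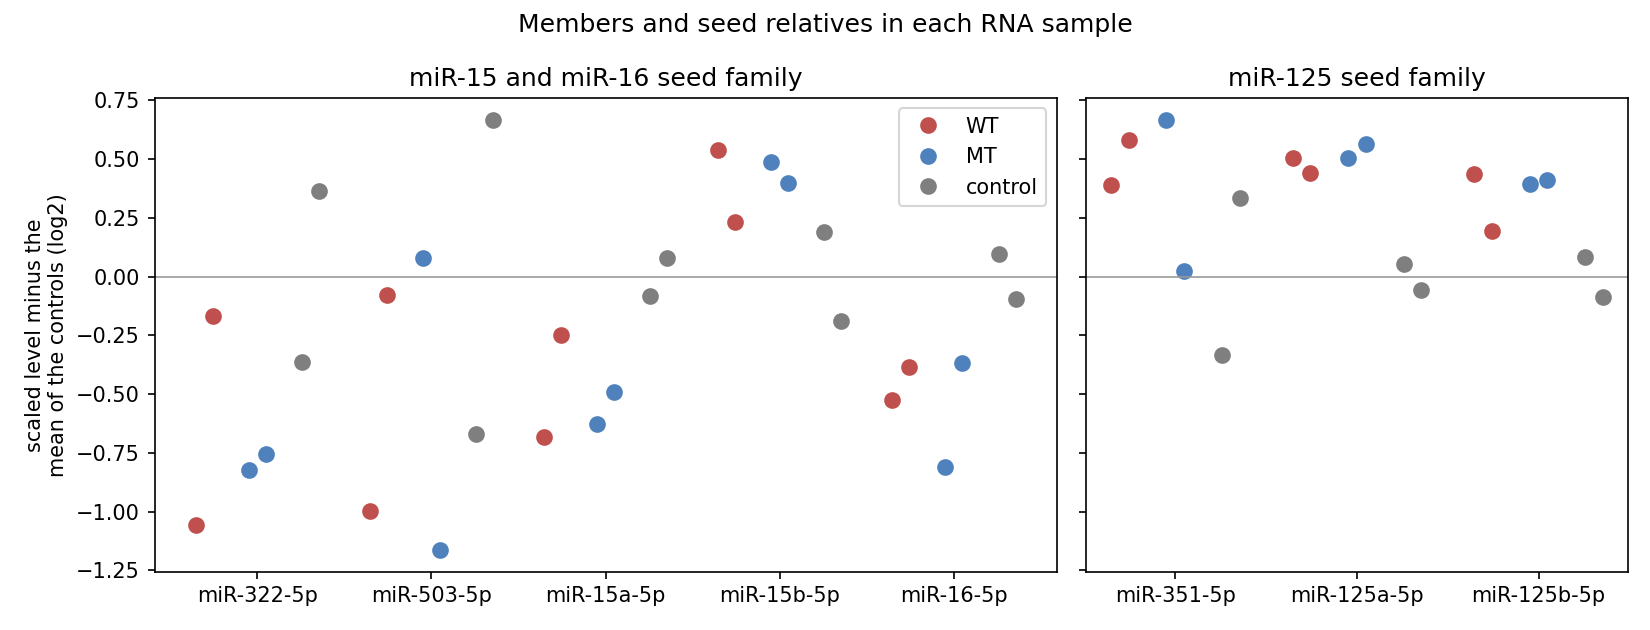
Level in each RNA sample minus the mean of the control samples (log2) for miR-322-5p, miR-503-5p and their relatives detected on all arrays, miR-15a-5p, miR-15b-5p and miR-16-5p, and for miR-351-5p and its relatives miR-125a-5p and miR-125b-5p. miR-15a-5p and miR-16-5p lie below both controls in all 4 samples with protein, and miR-15b-5p, miR-125a-5p and miR-125b-5p lie above them. Of all miRNAs tested, 25.4% lay below both controls in WT and 26.8% in MT, and 39.4% and 40.8% lay above.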

How the data were processed

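The authors deposited the intensity of each spot as Feature Extraction gave it after background subtraction, without normalization between arrays, and their table of the whole series equals those values within 0.005. The file headers name Feature Extraction 10.7.1.1 and the submitters' processing notes name 9.1. Outlier spots were dropped and the rest averaged per probe. To scale an array, its signals were divided by their 75th percentile over the 174 probes that all 8 arrays detected, a floor was set and log2 was taken. The brightest probe stood for each miRNA, and arrays of 1 RNA sample were averaged. Limma 3.58.1 in R 4.3.3 fitted the 3 groups together over 6 RNA samples, which leave 3 residual degrees of freedom, without a replicate block, and was checked on simulated data. Figures were drawn with matplotlib 3.10.9.

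The members, lists and tests were chosen with earlier results of these data known. Named were all members, the seed relatives tested (miR-195-5p and miR-497-5p added after values were seen), 8 other clusters by median and range, and the 5 miRNAs nearest in profile. Alternatives covered scaling, signal column, normexp, floor, filter, probes, outliers, technical arrays, blocks, the side of the slide and each replicate left out. Hairpin sequences and positions are from RefSeq, build GRCm38.p6. The number of arrays limits the precision.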

Additional observations from a re-analysis of the deposited data

How the results depend on the processing

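With all replicates kept, 0 members passed the adjusted p, apart from normexp, a random block for the RNA sample and the crossed numbers below. With normexp 2 passed for WT and 2 for MT against control, miR-322-5p and miR-351-5p in both. The random block gave 1 for MT against control, miR-542-3p, which entered the test only through the control group and was at the floor in MT. A replicate left out leaves 1 RNA sample in a group, so those fits are given by change alone. For all miRNAs, MT against control gave 40 with normexp, 29 with detection on all arrays, 11 with the random block, 3 with the total gene signal, 1 with a lower floor, 1 with no filter (where most of the variances were 0, so that fit is unreliable) and 0 to 18 over the replicates left out. WT against control gave 22 with normexp, 3 with the total gene signal and 1 with a lower floor, and WT against MT gave 0 in all of these settings. A replicate block, with numbers that did not pair the samples (correlations of 0.022, 0.39 and -0.46), left 0 members past the adjusted p in all 3 comparisons and 2 at an unadjusted p under 0.05 for WT and for MT against control. With the MT and control numbers crossed, chosen after seeing the data, 4 members and 58 miRNAs passed. Scaling over all mouse probes put the median of all changes at -0.19 for WT and -0.51 for MT relative to control and at 0.30 for WT relative to MT.

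The median of the members for MT against control moved to -1.10 with scaling over all mouse probes, 0.034 with normexp, 0 with no filter, 0.10 with the side as a term and -0.53 to -0.046 over the replicates left out. For WT against control it was 0.18 with normexp, and for WT against MT -0.37 with the total gene signal. The SD of the changes moved by less than the replicate spread (0.339) in all settings run.

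Single members changed sign as follows. For WT against control miR-322-3p was at -0.32 (all mouse probes), -0.023 (quantile), -0.0030 (outliers kept), -0.038 (second technical arrays) and -0.12 to 0.19 over the replicates left out. miR-450a-5p was at 0.15 and miR-542-3p at 0.15 with normexp, miR-450b-3p at 0.21 with normexp, 0.093 with the side and -0.33 to 0.093 over the replicates left out, miR-503-5p at -1.21 to 0.13 over them, and miR-542-5p at -0.036 (all mouse probes). For MT against control miR-322-3p was at 0.17 (total gene signal) and 0.051 (normexp), miR-322-5p at 0.099 (side), miR-351-5p at -0.37 (all mouse probes), miR-450a-5p at 0.017 (normexp) and 0.11 (side), and miR-450b-3p at -0.36 (all mouse probes), -0.65 (total gene signal) and -0.33 to 0.97 over the replicates left out. miR-503-5p was at 0.61 (total gene signal), 0.38 (side) and -1.21 to 0.12 over the replicates left out, and miR-542-5p at -0.50 (all mouse probes) and -0.022 (quantile). For WT against MT miR-322-5p was at -0.27 (side) and -0.27 to 0.62 over the replicates left out, miR-351-5p at -0.36 (total gene signal) and -0.18 to 0.46, miR-450a-5p at -0.21 (side) and -0.21 to 0.37, and miR-450b-3p at 0.088 (all mouse probes), 0.14 (normexp) and -1.09 to 0.21. miR-503-5p was at -0.0054 (quantile), -0.61 (total gene signal), -0.26 (outliers kept), -0.0455 (second technical arrays), -0.45 (side) and -0.62 to 0.63 over the replicates left out, miR-542-3p at -0.67 (total gene signal), and miR-542-5p at -0.91 (total gene signal), -0.23 (outliers kept), -0.023 (first technical arrays) and -0.032 to 0.255 over the replicates left out. The cause of these moves was not tested. The changes with the side equal those without WT replicate 2 for WT against MT, and those without WT replicate 1 for WT against control.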
